A study of Mus musculus with 11 samples.

Results

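Retinoid genes were described across 5 kinds of mouse cells: the 9 genes Crabp1, Crabp2, Rbp4, Stra6, Aldh1a2, Aldh1a3, Cyp26a1, Rarb and Rarg. They were chosen by gene symbol as carriers, enzymes and receptors of vitamin A metabolism, with earlier results of these data known. Every probe set whose platform annotation names one of these genes alone was taken. This gave 12 of 45101 probe sets and 9 of 18193 measured genes, and all 9 genes entered every comparison. Total RNA had been hybridized to Affymetrix mouse expression arrays, 1 array per sample. ViPSCs were reprogrammed to pluripotency out of ventricular myocytes (n = 3 arrays), TiPSCs out of fibroblasts of the tail tip (n = 3), and mESCs were genetically matched embryonic stem cells (n = 3). The source cells, ventricular cardiomyocytes (VM) and tail tip fibroblasts (TTF), came from pups on postnatal day 1 and had 1 array each, so no difference that involves them has a replicate check. Every group had the same mixed strain background, C57/Bl with BlackSwiss. The pluripotent cells had been kept with LIF on irradiated embryonic fibroblast feeders, and most feeders were taken out by letting them settle on uncoated dishes before RNA was prepared. Whether a group's 3 arrays stand for separate cultures or lines is not given, so p-values measure the spread between these arrays, which may be technical. Precision is limited by how few arrays there are.

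Retinol travels in blood bound to Rbp4, a secreted carrier, and enters many cells through the membrane receptor Stra6. Inside the cell, dehydrogenases oxidize retinol to retinaldehyde, and the retinaldehyde dehydrogenases Aldh1a2 and Aldh1a3 turn it into retinoic acid. Crabp1 and Crabp2 bind retinoic acid in the cytoplasm, Cyp26a1 oxidizes it for clearance, and the nuclear receptors Rarb and Rarg, paired with RXR partners, regulate genes in response to it. Rarb and Cyp26a1 are themselves well-known retinoic acid targets. Retinoic acid drives embryonic stem cells out of self-renewal in culture and patterns the embryo, including the heart.

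Levels are given as log2 RMA values, in which a difference of 1 is a doubling of signal. They ran between 2.43 and 15.14, with an array median over all probe sets between 4.67 and 4.78. Detection calls were not used here, and RMA compresses differences at low signal, so a value near 4 is not distinguished from no transcript. Levels of different genes are not set against each other, because each probe set has its own response. Marker genes fitted the labels. The median of 8 pluripotency markers was 12.14 to 12.75 in the 9 pluripotent arrays, against 4.09 in VM and 3.95 in TTF. That of 8 cardiomyocyte markers was 14.34 in VM and 4.02 in TTF, and that of 11 fibroblast markers was 8.80 in VM and 13.26 in TTF. VM also held all 7 endothelial markers at 7 or above (median 10.34). A level in bulk RNA cannot tell fewer cells of a type from less RNA per cell. Among the mESCs, mESCs 1 had the highest summed level of primitive and visceral endoderm markers. The summed level of 11 such markers was 9.90 on the log2 scale in mESCs 1, 8.69 in mESCs 2 and 8.75 in mESCs 3, against 8.38 to 8.46 in the induced arrays.

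The promoters of Rarb and Cyp26a1 are shown because both genes hold, next to a start site, the kind of element that retinoic acid receptors are known to bind. RefSeq (GRCm38.p6) start sites were available for 7 of the 9 genes, with 12 windows of 250 bases before a start site. They were searched on both strands for 2 copies of a 6-base receptor motif (AGGTCA or AGTTCA or GGGTCA or GGTTCA) in the same orientation, with 5 bases of any kind between them. Such a direct repeat stood in 1 window of Rarb and 1 window of Cyp26a1, and in none of the other windows searched. Of all 32851 RefSeq promoter windows of this length, 0.0883% held one. Since Rarb and Cyp26a1 are well-known retinoic acid targets, as stated above, matches in them are no independent finding. The same search with 1 or 2 bases between the motifs found no match in the members' windows, against 0.164% and 0.174% of all windows. Capitals mark the repeat. In Rarb (minus strand, chr14:16575477-16575726) it spans bases -53 to -37 from the start site and reads along the gene's strand. In Cyp26a1 (plus strand, chr19:37697558-37697807) it spans bases -32 to -16 and reads on the opposite strand, where its letters are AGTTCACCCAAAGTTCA. RefSeq also annotates a Cyp26a1 start upstream of the one used, so the end of that window lies inside the gene. The Rarb window lies wholly inside the annotated gene, which spans chr14:16430839-17082331. A match describes letters and does not show binding.
Rarb: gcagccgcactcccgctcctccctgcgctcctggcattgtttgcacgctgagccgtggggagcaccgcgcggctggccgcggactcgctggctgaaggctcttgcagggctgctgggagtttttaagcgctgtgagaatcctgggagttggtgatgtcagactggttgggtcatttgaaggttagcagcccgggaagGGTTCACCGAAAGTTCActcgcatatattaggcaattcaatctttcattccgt
Cyp26a1: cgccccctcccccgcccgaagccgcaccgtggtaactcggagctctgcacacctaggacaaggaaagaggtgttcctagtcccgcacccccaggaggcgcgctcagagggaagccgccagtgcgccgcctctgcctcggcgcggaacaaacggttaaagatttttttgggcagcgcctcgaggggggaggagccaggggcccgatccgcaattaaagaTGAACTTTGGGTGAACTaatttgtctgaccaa

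The cytoplasmic carrier Crabp1 had the widest spread of the 9 genes. It was far higher in TTF than in any other array, near the bottom of the scale in VM, and in between in the pluripotent cells. Its values were 8.88, 8.88 and 8.85 in ViPSCs, 8.37, 7.94 and 7.61 in TiPSCs, 7.93, 8.36 and 8.67 in mESCs, 4.51 in VM and 13.78 in TTF. The 3 ViPSCs arrays lay above all TiPSCs and mESCs arrays, while TiPSCs and mESCs overlapped. The group order was thus TTF, ViPSCs, mESCs, TiPSCs and VM, in which mESCs and TiPSCs are not separated. VM minus TTF was -9.27 log2 units, ViPSCs minus VM 4.36 and TiPSCs minus TTF -5.81. TiPSCs, whose source cells had the highest level, were the pluripotent group with the lowest mean.

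Crabp1 was the 1 gene of the 9 that passed the test between pluripotent groups. Mean Crabp1 was 8.87 ± 0.02 in ViPSCs and 7.97 ± 0.38 in TiPSCs (SD, n = 3 each). The difference was 0.90 ± 0.21 log2 units (SE), or 1.86-fold, with a 95% interval of 0.42 to 1.37 and adjusted p = 0.0421 (limma, Benjamini-Hochberg over 18193 genes, called at an adjusted p under 0.05). In this comparison 5.63% of all genes were called, so 1 of 9 is not set apart from the background. The direction was the same in all 18 alternative analyses (differences of 0.72 to 1.09), and 7 of them ended the call. These were the fits without ViPSCs 1 (adjusted p = 0.145), ViPSCs 2 (0.135), ViPSCs 3 (0.137), TiPSCs 2 (0.110), TiPSCs 3 (0.0976) or mESCs 2 (0.0584), and the fit with replicate number as a block (0.0916). ViPSCs exceeded mESCs by 0.55 ± 0.21 (95% interval 0.07 to 1.02, adjusted p = 0.226), and TiPSCs minus mESCs was -0.35 ± 0.21 (-0.83 to 0.13, adjusted p = 0.422). Fibroblast markers, which accompany high Crabp1 in TTF, had a summed level of 11.81 in TiPSCs 1 and 11.34 in TiPSCs 2, against 10.90 to 11.02 in ViPSCs and 10.73 to 10.98 in mESCs, and TiPSCs 3 lay within the ViPSCs range. TiPSCs 1 was also the highest TiPSCs array for Crabp1. The part of remaining fibroblasts in these levels was not tested.

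**Figure D1:**
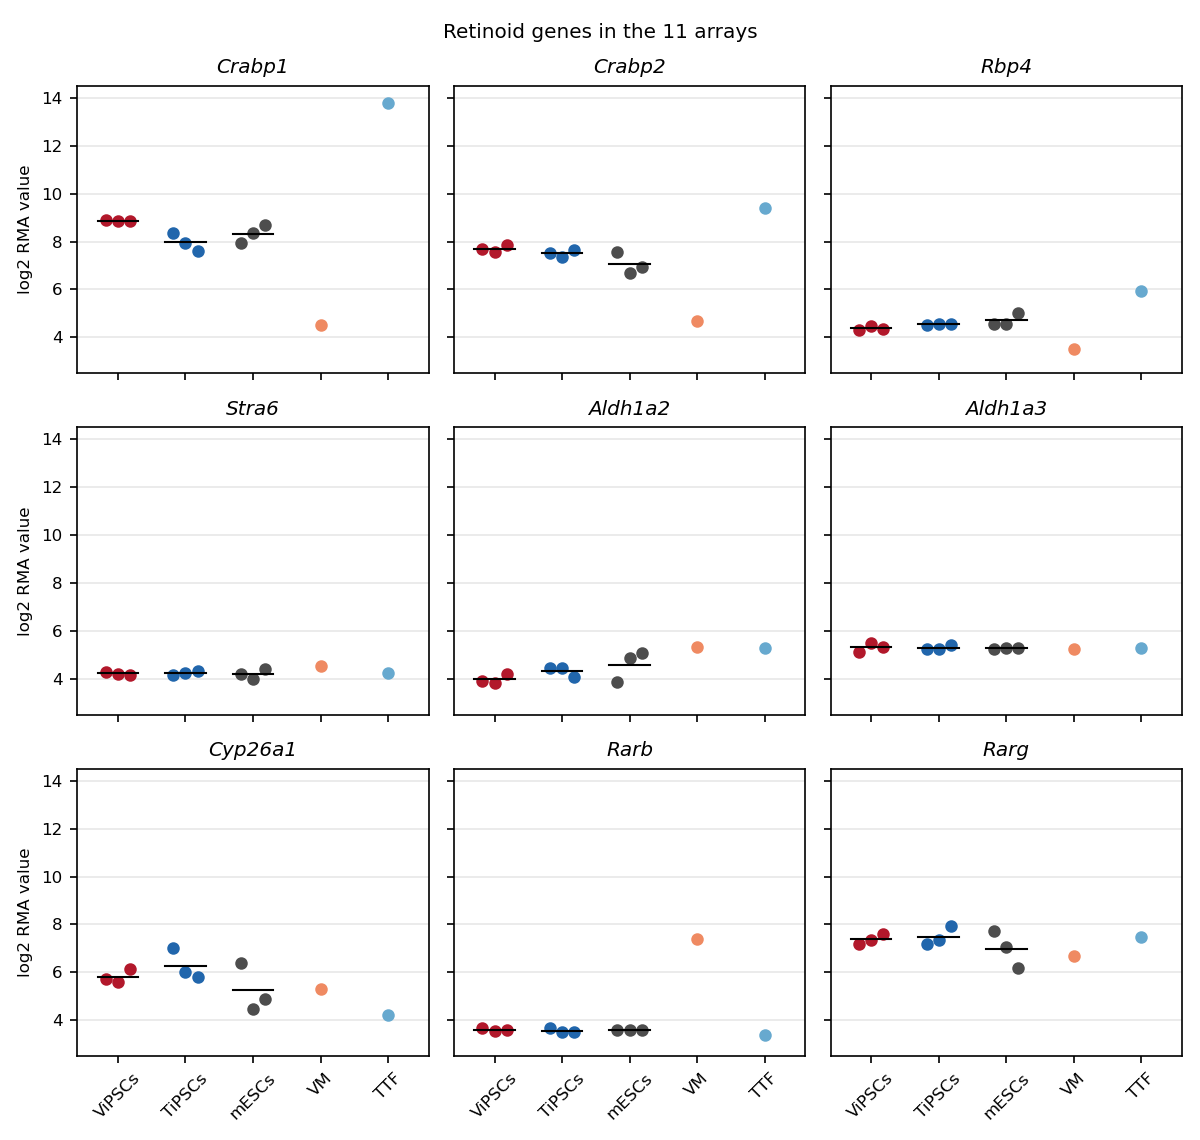
Log2 RMA values of the 9 retinoid genes (y axis) by group (x axis: ViPSCs, TiPSCs and mESCs with 3 arrays each, VM and TTF with 1). Points are arrays and lines are group means; Crabp1 and Crabp2 are highest in TTF (13.78 and 9.41), and Rarb stands out in VM (7.41).

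Crabp2, which carries retinoic acid to its nuclear receptors, was ordered like Crabp1 at the extremes. It was 7.69, 7.56 and 7.86 in ViPSCs, 7.51, 7.35 and 7.67 in TiPSCs, 7.58, 6.69 and 6.95 in mESCs, 4.69 in VM and 9.41 in TTF. ViPSCs and TiPSCs overlapped, and mESCs 2 and mESCs 3 lay below all 6 induced arrays while mESCs 1 lay among them. VM minus TTF was -4.71 log2 units, ViPSCs minus VM 3.01 and TiPSCs minus TTF -1.90. Between ViPSCs and mESCs the difference was 0.63 ± 0.20 (SE, 95% interval 0.17 to 1.09, adjusted p = 0.150), between TiPSCs and mESCs 0.44 ± 0.20 (-0.02 to 0.90, adjusted p = 0.297), and between ViPSCs and TiPSCs 0.20 ± 0.20 (-0.26 to 0.65, adjusted p = 0.659). None passed the limma test.

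Rbp4, the retinol carrier of blood, was low in all pluripotent arrays. It was 4.30, 4.47 and 4.33 in ViPSCs, 4.52, 4.56 and 4.57 in TiPSCs, 4.56, 4.56 and 5.02 in mESCs, 3.51 in VM and 5.91 in TTF. ViPSCs lay below TiPSCs and mESCs without overlap, but by differences of -0.18 ± 0.13 (95% interval -0.47 to 0.10, adjusted p = 0.478) and -0.35 ± 0.13 (-0.63 to -0.06, adjusted p = 0.201) that did not pass. Arrays of ViPSCs and TiPSCs did not overlap for 2 of the 9 genes, Crabp1 and Rbp4, against 33.5% of all genes, and those of ViPSCs and mESCs for the same 2 genes, against 22.2%. Arrays of TiPSCs and mESCs overlapped for all 9 genes, while 15.8% of all genes did not overlap. VM minus TTF was -2.40 log2 units. Stra6, the receptor that takes up retinol from Rbp4, lay between 3.98 and 4.52 in all 11 arrays and showed no group pattern.

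Of the 9 genes, Aldh1a2 and Aldh1a3 are enzymes of retinoic acid synthesis. In all 11 arrays Aldh1a2 was at 5.34 or below and the brightest Aldh1a3 probe set at 5.47 or below. Aldh1a2, the main such enzyme of the early embryo, was 3.89, 3.83 and 4.19 in ViPSCs, 4.45, 4.43 and 4.09 in TiPSCs, 3.85, 4.85 and 5.06 in mESCs, 5.34 in VM and 5.31 in TTF. The 2 source arrays were alike and above every pluripotent array, and mESCs 2 and mESCs 3 were the highest of the pluripotent arrays. ViPSCs minus mESCs was -0.62 ± 0.28 (95% interval -1.24 to 0.00, adjusted p = 0.293) and TiPSCs minus mESCs -0.27 ± 0.28 (-0.89 to 0.35, adjusted p = 0.659). ViPSCs minus TiPSCs was -0.35 ± 0.28 (-0.97 to 0.27, adjusted p = 0.534). Aldh1a2 is also a marker of the epicardium, and of 6 epicardial and mesothelial markers 1 was at 7 or above in VM, the same number as in TTF. That marker was Tbx18 in both arrays, and it was lower in VM. The others were below 7 but all higher in VM than in TTF. They were Wt1 (5.54 against 3.81), Tcf21 (5.54 against 3.33), Upk3b (5.89 against 3.55), Msln (6.08 against 4.91) and Upk1b (4.49 against 3.79). The part of epicardial cells in the Aldh1a2 level of VM was not tested. Aldh1a3 had 3 probe sets. Its brightest, on which all pluripotent groups overlapped, was between 5.11 and 5.47 in all 11 arrays, and the other two lay between 4.18 and 4.78 and between 3.22 and 3.82. On the second, the TiPSCs arrays (4.55, 4.78 and 4.46) lay above the mESCs arrays (4.45, 4.42 and 4.39), by 0.18 ± 0.15 log2 units on average (SE, adjusted p = 0.600 over every probe set). The 5 group means of Aldh1a3 spanned 0.06 log2 units, against a median span of 1.0 over all genes.

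Cyp26a1, which clears retinoic acid, was the most variable of the 9 genes within groups. It was 5.73, 5.59 and 6.12 in ViPSCs, 7.0, 6.01 and 5.82 in TiPSCs, 6.41, 4.48 and 4.87 in mESCs, 5.31 in VM and 4.20 in TTF. TiPSCs 1 and mESCs 1 were the highest arrays, mESCs 2 and mESCs 3 the lowest pluripotent ones, and TTF lay below every other array. The range over the 3 mESCs arrays, 1.93 log2 units, was larger than for 99.2% of all genes, and that over the TiPSCs arrays, 1.18, larger than for 99.3%. The intervals of the group differences were wide. TiPSCs minus mESCs was 1.03 ± 0.47 (SE, 95% interval -0.03 to 2.09, adjusted p = 0.287), ViPSCs minus mESCs 0.56 ± 0.47 (-0.50 to 1.62, adjusted p = 0.599) and ViPSCs minus TiPSCs -0.47 ± 0.47 (-1.53 to 0.59, adjusted p = 0.645). Single arrays moved these values: ViPSCs minus TiPSCs was -0.11 without TiPSCs 1, and with 1 array left out the differences from mESCs ran between 0.64 and 1.60 for TiPSCs and between 0.17 and 1.14 for ViPSCs, lowest without mESCs 2 and highest without mESCs 1. TiPSCs were 2.08 log2 units higher than TTF on average, but by 1.62 in the lowest array. ViPSCs were 0.50 higher than VM.

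The receptor Rarb was measured above the low end of the scale in VM alone. It was 7.41 in VM and 3.36 in TTF, against which the 9 pluripotent arrays lay between 3.50 and 3.68. VM minus TTF was thus 4.05 log2 units, and ViPSCs minus VM -3.81. Between pluripotent groups the largest of the 3 Rarb differences was 0.04 (ViPSCs minus TiPSCs, 95% interval -0.15 to 0.22, adjusted p = 0.857). In VM, beside the 8 cardiomyocyte markers, 7 of 7 endothelial, 6 of 11 fibroblast and 1 of 6 epicardial markers were at 7 or above. The summed levels on the log2 scale were 17.29 for cardiomyocyte, 13.39 for endothelial, 14.66 for fibroblast and 8.86 for epicardial markers in VM, against 7.34, 7.79, 16.82 and 8.49 in TTF. Which of these cells held Rarb was not tested.

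Rarg, the receptor form known from embryonic stem cells and skin, lay well above the low end of the scale in all 5 kinds of cells on the brighter of its probe sets. Its brighter probe set was 7.19, 7.35 and 7.59 in ViPSCs, 7.19, 7.33 and 7.95 in TiPSCs, 7.73, 7.08 and 6.17 in mESCs, 6.68 in VM and 7.47 in TTF. All pluripotent groups overlapped, and mESCs 3 was the lowest of the 11 arrays. The second probe set placed TiPSCs 3 (6.25) and mESCs 1 (5.998) highest and mESCs 3 (4.62) lowest, the same arrays as the first. Its values of 4.68 in VM, 4.73 in mESCs 2 and 4.62 in mESCs 3 lay near the array median. The group differences were -0.11 ± 0.35 for ViPSCs minus TiPSCs (adjusted p = 0.903), 0.39 ± 0.35 for ViPSCs minus mESCs (adjusted p = 0.630) and 0.50 ± 0.35 for TiPSCs minus mESCs (95% interval -0.29 to 1.29, adjusted p = 0.490).

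**Figure D2:**
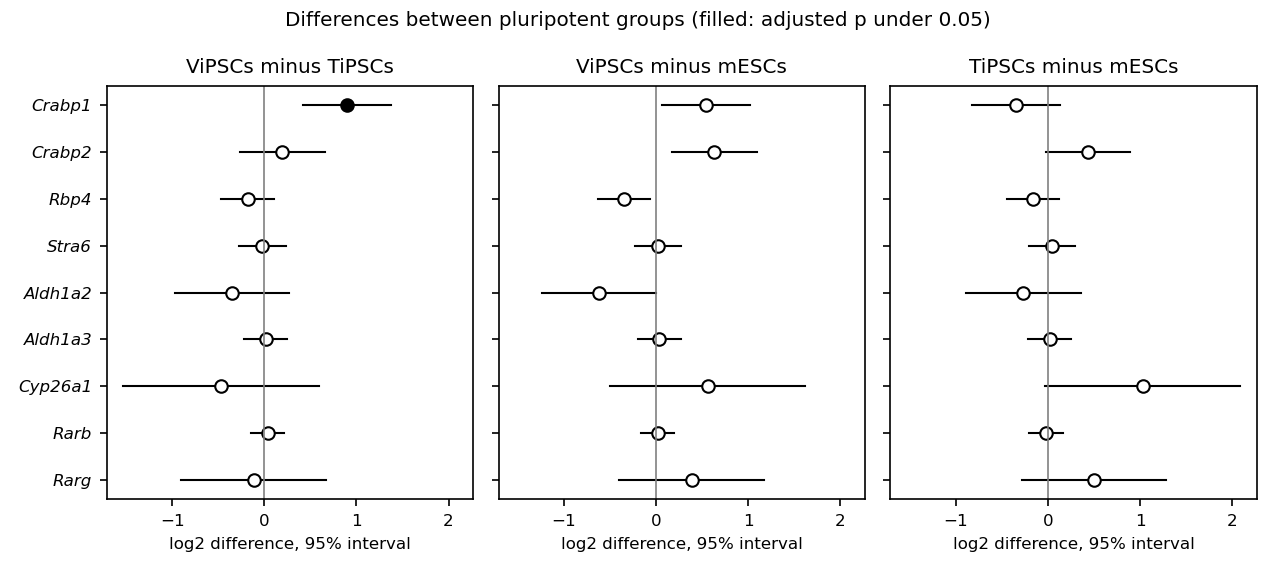
Log2 differences (x axis) of the 9 genes between pluripotent groups, as points with 95% intervals from limma; filled points passed at an adjusted p under 0.05. Crabp1 in ViPSCs minus TiPSCs (0.90) is the 1 filled point.

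In all, 1 of 9 genes was called between ViPSCs and TiPSCs, and 0 of 9 in either comparison with mESCs. Over all genes, 2.14% were called for ViPSCs against mESCs and 0.632% for TiPSCs against mESCs. At an unadjusted p under 0.05 limma counted 3 of the 9 genes for ViPSCs against mESCs (Crabp1, Crabp2 and Rbp4) and 0 for TiPSCs against mESCs, where 17.2% and 18.1% of all genes had such a p. The median difference of the 9 genes was -0.02, 0.04 and 0.02 for ViPSCs minus TiPSCs, ViPSCs minus mESCs and TiPSCs minus mESCs, against -0.03, -0.00 and 0.03 over all genes.

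In both comparisons with mESCs, the calls of Crabp2, Cyp26a1 and Aldh1a2 changed when the array mESCs 1 was left out. Crabp2 and Cyp26a1 were lower and Aldh1a2 higher in mESCs 2 and mESCs 3 than in mESCs 1. Deviations from the mean of the 9 pluripotent arrays were 0.15, -0.74 and -0.48 for Crabp2 in mESCs 1, 2 and 3, 0.62, -1.30 and -0.91 for Cyp26a1, and -0.44, 0.56 and 0.77 for Aldh1a2. Rarg deviated by 0.44, -0.21 and -1.12. The range over the mESCs arrays exceeded that of 92.1% of all genes for Crabp2, 96.4% for Aldh1a2 and 98.4% for Rarg, beside the 99.2% for Cyp26a1. Without mESCs 1, with mESCs 2 and mESCs 3 alone left in their group, limma called 3 of the 9 genes in each comparison. In that fit 13.8% of all genes were called for ViPSCs and 16.7% for TiPSCs. Leaving out an array that stood apart also lowered the SE, for Crabp2 in ViPSCs minus mESCs from 0.20 to 0.13. The p-values of this fit are thus no independent check. Crabp2 was then higher than in mESCs by 0.89 ± 0.13 in ViPSCs (adjusted p = 0.00330) and 0.69 ± 0.13 in TiPSCs (adjusted p = 0.00919). Cyp26a1 was higher by 1.14 ± 0.32 in ViPSCs (adjusted p = 0.0475) and by 1.60 ± 0.32 in TiPSCs (adjusted p = 0.0106). Aldh1a2 was lower, by -0.99 ± 0.15 in ViPSCs (adjusted p = 0.00355) and by -0.63 ± 0.15 in TiPSCs (adjusted p = 0.0221). Its means in ViPSCs and TiPSCs, 3.97 and 4.32, lay near the low end of the scale. Crabp1 was then 0.35 ± 0.19 for ViPSCs minus mESCs (adjusted p = 0.293) and -0.55 ± 0.19 for TiPSCs minus mESCs (adjusted p = 0.0911), neither of them called. Weights for each array were lowest for mESCs 1 (0.262) and mESCs 3 (0.397), against 1.79 for mESCs 2. The weighted mESCs mean thus rested mostly on mESCs 2. With these weights, 3 genes were called for ViPSCs (Crabp1, Crabp2 and Aldh1a2, with 19.0% of all genes called). By the same fit, 2 genes were called for TiPSCs (Crabp2 and Cyp26a1, with 16.0%). Some but not all of the primitive and visceral endoderm markers given above set mESCs 1 apart. The widest gaps were those of Gata6 and Dab2. Gata6 was 7.01 in mESCs 1 against 4.09 and 3.89 in mESCs 2 and mESCs 3, and Dab2 was 7.90 against 4.59 and 4.58. Sox17 was 5.21 against 4.15 and 3.78, while Afp was 4.66 against 4.49 and 4.68, and Apob 3.65 against 3.54 in both. The part of these markers in the retinoid values was not tested.

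**Figure D3:**
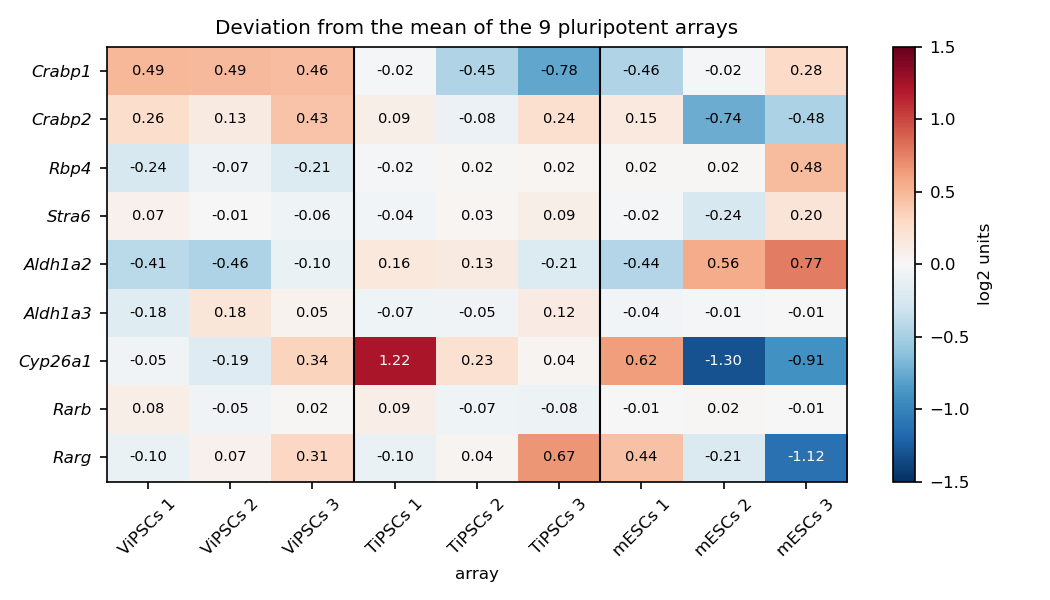
Deviation of each pluripotent array (columns) from the mean of the 9 arrays for the 9 genes (rows), in log2 units. Cyp26a1 is lowest in mESCs 2 (-1.30) and mESCs 3 (-0.91) and highest in TiPSCs 1 (1.22), and Aldh1a2 runs the other way in the mESCs.

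The source cells differed in 4 of the 9 genes by at least 2 log2 units, without a test, against 9.31% of all genes. Rarb was higher in VM, and Crabp1, Crabp2 and Rbp4 were lower in VM. By the same measure, required in all 3 induced arrays, ViPSCs differed from VM in 3 of 9 genes (13.2% of all genes), with Crabp1 and Crabp2 higher and Rarb lower in ViPSCs. TiPSCs differed from TTF in 1 of 9 genes (10.5% of all genes), with Crabp1 lower in TiPSCs. These comparisons share the VM and TTF arrays and are not independent. The 9 genes were chosen with earlier results of these data known, so their counts are no test against the shares of all genes. The other 5 genes, Stra6, Aldh1a2, Aldh1a3, Cyp26a1 and Rarg, stayed under 2 log2 units between VM and TTF. With a threshold of 1 log2 unit, TiPSCs differed from TTF in 4 genes (26.4% of all genes), Cyp26a1 being higher and Crabp1, Crabp2 and Rbp4 lower in TiPSCs.

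**Figure D4:**
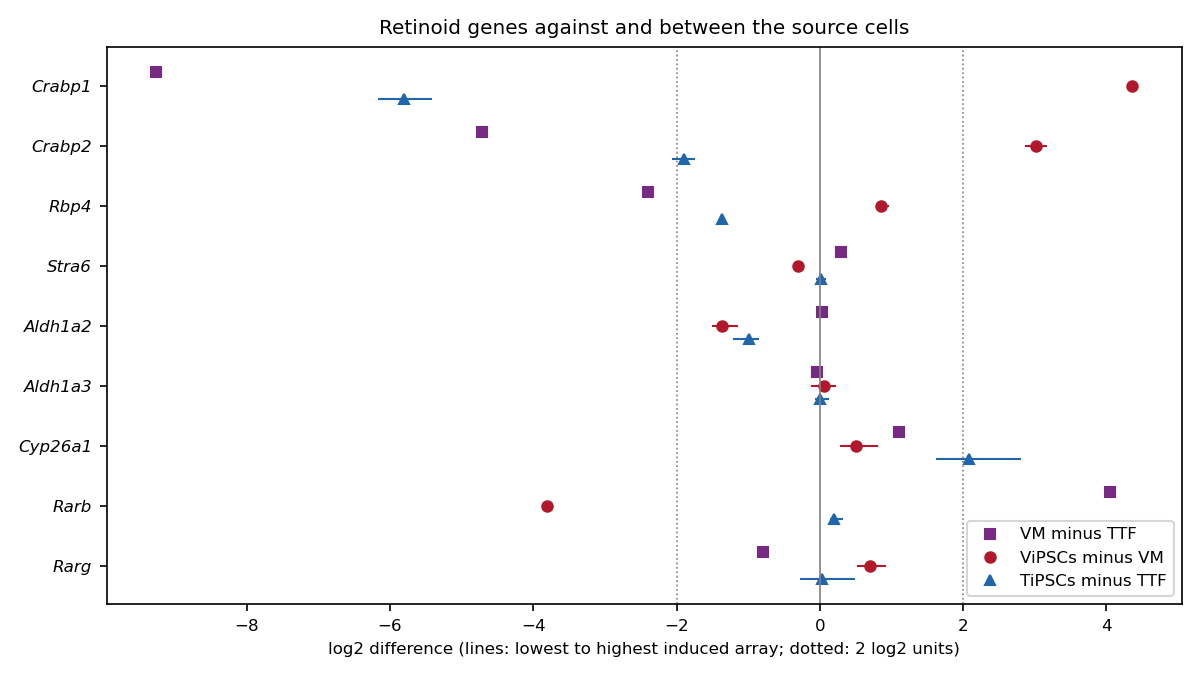
Log2 differences (x axis) of the 9 genes for VM minus TTF (squares), ViPSCs minus VM (circles) and TiPSCs minus TTF (triangles), with lines from the lowest to the highest induced array and dotted lines at 2 log2 units. Crabp1 differs most (-9.27, 4.36 and -5.81), and Rarb is high in VM alone (4.05, -3.81 and 0.20).

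The wider retinoid pathway was read from a list of 83 other genes, of which 76 were measured by a probe set with that symbol alone. In ViPSCs against TiPSCs 3 of 76 were higher and 1 lower, where 3.20% of all genes were higher and 2.43% lower. In ViPSCs against mESCs 0 were higher and 1 lower (1.45% and 0.693% of all genes). In TiPSCs against mESCs 0 were higher and 1 lower (0.291% and 0.341%). At an unadjusted p under 0.05 limma counted 14, 17 and 15 of the 76 in these comparisons, against 21.0%, 17.2% and 18.1% of all genes, so the list stayed near the background. The list's median differences were -0.04, -0.01 and 0.03 in this order, against -0.03, -0.00 and 0.03 over all genes. None of the 9 other carrier and uptake genes passed in any of the 3 comparisons (1 in each at an unadjusted p under 0.05), nor did Cyp26b1, the other clearing enzyme measured. In VM, 4 of 76 exceeded TTF by 2 log2 units or more and 2 were lower by as much, against 4.68% and 4.62% of all genes.

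Stra8, a gene first known for its induction by retinoic acid and needed for entry into meiosis, was low in TiPSCs. It was 7.03 ± 0.04 in ViPSCs, 5.56 ± 0.24 in TiPSCs and 7.37 ± 0.23 in mESCs (SD, n = 3 each), and 4.54 in VM and 4.88 in TTF. ViPSCs were higher than TiPSCs by 1.47 ± 0.14 log2 units (SE, adjusted p = 0.00146), a call that held in 18 of 18 alternatives. TiPSCs were lower than mESCs by -1.81 ± 0.14 (adjusted p = 0.00361), a call that ended in 1 of 18, the fit of the 6 compared arrays alone (adjusted p = 0.0598). ViPSCs minus mESCs was -0.34 ± 0.14 (adjusted p = 0.270). All TiPSCs arrays lay below all ViPSCs and mESCs arrays.

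The other pathway genes that passed were closer to the threshold. Adh1, an alcohol dehydrogenase that oxidizes retinol, was 5.53 ± 0.27 in ViPSCs and 4.46 ± 0.24 in TiPSCs (difference 1.07 ± 0.26, adjusted p = 0.0463). Ncoa1, a coactivator of nuclear receptors, was 8.43 ± 0.11 in ViPSCs and 7.84 ± 0.08 in TiPSCs (0.59 ± 0.12, adjusted p = 0.0248). Leaving out any of the ViPSCs or TiPSCs arrays ended both calls (adjusted p between 0.0712 and 0.166 for Adh1 and between 0.0535 and 0.111 for Ncoa1), as centring the arrays did for Adh1 (0.0537). Lamc1, a laminin chain induced when embryonal carcinoma cells respond to retinoic acid, was 8.27 ± 0.10 in ViPSCs, 8.75 ± 0.12 in TiPSCs and 8.72 ± 0.08 in mESCs. ViPSCs were lower than TiPSCs (-0.48 ± 0.09, adjusted p = 0.0231) and than mESCs (-0.44 ± 0.09, adjusted p = 0.0499). Its probe sets disagreed, since their mean gave 0.10 for ViPSCs minus TiPSCs (adjusted p = 0.797). The first of these calls ended without ViPSCs 1, 2 or 3 or TiPSCs 1 or 2 (adjusted p between 0.0728 and 0.102), and the second in 12 of 18 alternatives, among them without ViPSCs 1, 2 or 3, TiPSCs 1 or 2, or mESCs 2 or 3 (adjusted p between 0.0683 and 0.205).

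Between the source arrays, the pathway genes that differed included genes of lipid and retinoid uptake. Cd36, a fatty acid and lipoprotein receptor, was 11.90 in VM and 3.66 in TTF, and Lpl, which frees fatty acids and retinyl esters from lipoproteins, was 13.45 in VM and 8.53 in TTF. Rbp7, a cellular retinol-binding protein, was 6.92 in VM and 3.40 in TTF. Tgm2, a transglutaminase induced by retinoic acid, was 12.39 in VM and 7.20 in TTF. Lower in VM were Pdgfra, a growth factor receptor of fibroblasts, at 6.70 against 10.53 in TTF, and Lefty1, an inhibitor of Nodal signalling, at 5.28 against 7.64. Cardiomyocyte, endothelial and fibroblast markers were all found at 7 or above in VM, as given for Rarb. The part of each of these cell types in the levels of these genes was not tested.

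For the 5 genes whose group means spanned at least 2 log2 units, the most similar patterns over the 11 arrays were sought among the 4360 other genes with such a span; genes with it made up 24.0% of all genes. Pearson's r, a description that the VM and TTF arrays largely set, was highest for Crabp1 with Pdia5 (0.99), Rasa4 (0.98) and Prkg2 (0.98), and for Crabp2 with Nxn (0.99), Erc2 (0.98) and Ergic3 (0.98). For Rarb these were Ctla2a, Mylk3 and Fndc5 (0.998 each), all highest in VM. Cyp26a1 was matched less closely, by Gad1 (0.93), Gna14 (0.90) and Sp5 (0.88), and Rbp4 by Pdia4, 1810055G02Rik and Stxbp4 (0.97 each). Gad1, a glutamate decarboxylase, averaged 6.06 in ViPSCs, 6.90 in TiPSCs, 4.48 in mESCs, 3.29 in VM and 3.25 in TTF.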

How the data were processed

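The deposited values were log2 expression values of 45101 probe sets, made by RMA, per the submitters' processing notes; its version, chip definition and options are not given in the sources used here. Genes were named from GEO's platform annotation. The 64 control probe sets, 932 with several symbols and 9160 without a symbol were left out, and for each of 18193 genes the brightest probe set on average (11 arrays) was used. ViPSCs, TiPSCs and mESCs were compared with limma 3.58.1 in R 4.3.3 (1 mean per group, spread shared by the 9 arrays, two-sided, Benjamini-Hochberg over all genes, adjusted p under 0.05). Sharing the spread treats all groups as equally variable, although the median SD over all genes was 0.08 in ViPSCs, 0.12 in TiPSCs and 0.15 in mESCs. VM and TTF, with 1 array each, were compared without a test at 2 log2 units. Summed marker levels are log2 of the sum of unlogged values. The fit was tested on simulated data, where it missed most changes of 0.5 log2 units, so a difference of that size that was not called may still be real. Same-numbered arrays deviated together by correlations of -0.12 to 0.12, so the numbers were not taken as pairs. The text names all 9 genes, the pathway genes called or at least 2 log2 units apart between VM and TTF, and the 3 genes most alike in pattern. The genes and lists were chosen with earlier results of these data known. The alternatives were other probe set rules, fits of 2 groups, array weights, a prior with trend, a filter on low levels, scaling, a replicate block and leaving out each array.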

Additional observations from a re-analysis of the deposited data

Results flagged for a closer look

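For 4 of the 9 genes, every ViPSCs array differed from VM in one direction and every TiPSCs array from TTF in the other. The same held for 3267 of all 18193 genes, and for 46.8% of those at least 2 log2 units apart between VM and TTF, as these 4 were. Crabp1 was 4.36 log2 units higher in ViPSCs than in VM, and TiPSCs minus TTF was -5.81. Crabp2 gave 3.01 for ViPSCs minus VM and -1.90 for TiPSCs minus TTF. Rbp4 gave 0.86 for ViPSCs minus VM and -1.36 for TiPSCs minus TTF. Rarb gave -3.81 for ViPSCs minus VM and 0.20 for TiPSCs minus TTF, the second between levels of 3.57 and 3.36 that are not distinguished from no transcript. These differences were not tested, since each source has 1 array. No outlier test was run on groups of 3 arrays; how mESCs 1 stood apart is described with the comparisons it touches.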

How the results depend on the processing

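Between ViPSCs and TiPSCs 1024 genes passed. With every probe set tested, 1635 of 34945 probe sets passed, which is not a count of genes. The count of genes was 2621 in the fit of the 2 groups alone, 3613 with array weights and 623 with the replicate block. It was 207 to 1994 with 1 array left out. Of the pathway list 4 passed (12 in the fit of the 2 groups, 17 with array weights, 1 to 9 with 1 array left out). Of the 9 retinoid genes 1 passed (0 with the replicate block, 0 to 1 with 1 array left out). Between ViPSCs and mESCs 390 genes passed, and 73 in the fit of the 2 groups, 3453 with array weights, 103 with the replicate block and 22 to 2519 with 1 array left out. Of the 9 genes 0 passed (3 with array weights, 0 to 3 with 1 array left out), and of the pathway list 1 (0 with every probe set, with the mean of probe sets, in the fit of the 2 groups, with trend and with the replicate block, 12 with array weights, 0 to 13 with 1 array left out). Between TiPSCs and mESCs 115 genes passed, and 65 with the mean of probe sets, 1 in the fit of the 2 groups, 2913 with array weights, 9 with the replicate block and 12 to 3038 with 1 array left out. Of the 9 genes 0 passed (2 with array weights, 0 to 3 with 1 array left out), and of the pathway list 1 (0 in the fit of the 2 groups, 17 with array weights, 1 to 17 with 1 array left out). The highest counts of all genes and of pathway genes with 1 array left out were reached without mESCs 1. The replicate block ended the calls of Crabp1 between ViPSCs and TiPSCs and of Lamc1 between ViPSCs and mESCs (adjusted p = 0.0838) and changed no other call of a named gene. At 1 log2 unit, TiPSCs differed from TTF in 4 of the 9 genes instead of 1. Differences near 0 changed sign without passing: for ViPSCs minus TiPSCs, Aldh1a3 with the mean of probe sets (-0.034), Rarg with array weights (0.038) and Stra6 with array weights (0.0024) or quantile normalization (0.021); for ViPSCs minus mESCs after centring, Rarb (-0.029), Aldh1a3 (-0.0083) and Stra6 (-0.023); for TiPSCs minus mESCs, Rarb (0.0025) and Aldh1a3 (-0.021) with array weights and Aldh1a3 after centring (-0.019). With 1 array left out, these also changed sign without passing. For ViPSCs minus TiPSCs the ranges were -0.0665 to 0.11 (Aldh1a3), -0.26 to 0.12 (Rarg) and -0.057 to 0.0099 (Stra6). For ViPSCs minus mESCs they were -0.016 to 0.050 (Rarb), -0.046 to 0.13 (Aldh1a3), -0.088 to 0.13 (Stra6) and -0.023 to 0.76 (Rarg). For TiPSCs minus mESCs they were -0.076 to 0.011 (Rarb), -0.038 to 0.055 (Aldh1a3) and -0.065 to 0.15 (Stra6). Lamc1 between ViPSCs and TiPSCs changed sign with the mean of its probe sets (0.10). The cause of these changes was not tested.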
